A study of Rattus norvegicus with 29 samples.

Results

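Plasma miRNAs of injured rats were compared between a pair of study sites, the University of Eastern Finland (UEF) and the University of California, Los Angeles (UCLA). The comparison took every rat whose label gives UEF or UCLA as the site and TBI as the procedure, which was 14 of the 29 rats in the series, 8 from UEF and 6 from UCLA. All were adult male Sprague-Dawley rats with a lateral fluid-percussion injury made under isoflurane anaesthesia. This injury is a pulse of fluid pressure on the exposed dura that causes a severe traumatic brain injury (TBI). Blood was drawn from the tail vein about 48 h later, and video-EEG in the 7th month after injury showed which rats had developed epilepsy. At UEF 4 rats had no later epilepsy (TBIN) and 4 had epilepsy (TBIE), and at UCLA 3 rats were TBIN and 3 were TBIE. Sham-operated experimental controls, which had anaesthesia and craniotomy without the pressure pulse, numbered 4 at UEF and 3 at UCLA and served as a second, separate comparison of the sites. Every injured rat therefore had the same procedure, and the groups differed by the site and by all that went with it. The labels do not give the severity of the injury in each rat. Per the study's methods the sites bought rats from different vendors and used different chow and different analgesics (buprenorphine at UEF, flunixin meglumine at UCLA). UCLA also gave chow with an antibiotic. UCLA plasma travelled frozen to UEF, from where the plasma of all sites was sent on for sequencing. Housing before surgery and extra feeding after it also differed, and UCLA did not record the exact time of blood sampling. These factors cannot be told apart from the site in these data.

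A miRNA is a short RNA cut from a hairpin precursor, and its 5p and 3p names tell which arm of the hairpin it came from. Bases 2 to 8 of the mature miRNA, the seed, pair with target mRNAs, so miRNAs with the same seed share many targets. Plasma holds miRNAs released by blood cells, liver, vessel wall, muscle and other organs, bound to proteins or carried in vesicles. Several miRNAs are known for one tissue: miR-122 for hepatocytes, miR-133 and miR-206 for striated muscle, miR-140 and miR-455 for cartilage, miR-143 and miR-145 for smooth muscle, and miR-451 and miR-486 for red cells. Plasma counts cannot tell apart more cells of a tissue releasing a miRNA and more miRNA released per cell.

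The miRNAs that differed most between the sites came from few hairpins, and their sequences show how they relate. Sequences were taken from RefSeq (rat build GRCr8), which held a mature sequence for 674 of the 754 names in the table and for 33 of the 37 miRNAs that differed. Each is written 5′ to 3′ with the seed in capitals. The first set, lower at UEF than at UCLA, holds the arms of the miR-140 hairpin and 1 arm of the miR-455 hairpin. RefSeq places Mir140 on the plus strand at chr19:52375293-52375391, inside the gene Wwp2, and Mir455 on the plus strand at chr5:81704834-81704911, inside the collagen gene Col27a1.
miR-140-3p: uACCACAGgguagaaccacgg
miR-140-5p: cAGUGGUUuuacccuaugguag
miR-455-3p: gCAGUCCAcgggcauauacacu

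The second set, also lower at UEF, comes from 1 group of 6 hairpins on the minus strand of chromosome X, at chrX:137720933-137726241, a span of 5309 bases. miR-322-5p and miR-503-5p begin their seeds with the same 6 bases as miR-16-5p, one of the most abundant miRNAs in plasma, which is shown last for comparison.
miR-322-5p: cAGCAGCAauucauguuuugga
miR-322-3p: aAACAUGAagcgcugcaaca
miR-503-5p: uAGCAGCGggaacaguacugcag
miR-503-3p: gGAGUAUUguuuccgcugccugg
miR-351-5p: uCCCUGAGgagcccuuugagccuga
miR-351-3p: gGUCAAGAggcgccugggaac
miR-542-5p: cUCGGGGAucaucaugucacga
miR-450b-3p: aUUGGGGAcgcuucgcauuca
miR-16-5p: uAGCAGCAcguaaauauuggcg

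The third set was higher at UEF. miR-676 lies inside Eda on chromosome X, miR-490-3p inside Chrm2, and miR-381-3p and miR-323-3p in the imprinted miRNA domain of chromosome 6. miR-211-5p and miR-204-5p, a pair from different chromosome regions with the same seed, were shown because both stood higher at UEF, with the test passed by the first.
miR-676: cCGUCCUGagcuugucgagcua
miR-490-3p: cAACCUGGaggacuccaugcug
miR-381-3p: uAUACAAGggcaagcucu
miR-323-3p: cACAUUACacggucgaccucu
miR-211-5p: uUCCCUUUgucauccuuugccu
miR-204-5p: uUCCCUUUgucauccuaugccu

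The data were counts of 754 miRNAs per rat. Total miRNA counts of the injured rats ran from 1638451 to 4669149 at UEF and from 2163966 to 3976506 at UCLA. Levels are given as CPM (counts scaled to a common library size) after TMM normalization, which rescales each library so that most miRNAs keep the same level between libraries. The TMM factors ranged from 0.68 (UEF TBIN rat 2) to 1.78 (UEF TBIE rat 4). The plasma profile held the miRNAs known from blood: miR-16-5p made up 10.8% to 25.6% of the counts of an injured rat and miR-486 made up 11% to 23.8%. No pair of libraries was identical, and every pair differed by more than counting error.

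The 3 libraries of the UCLA TBIE rats stood apart from the rest, and the calls that were lost without them are named with each set of miRNAs below. Of 746 miRNAs, 70 lay below the other 11 injured rats in all 3 of these libraries and 29 lay above. miR-673-3p ran from 4.7 to 9 CPM in UCLA TBIE rats, from 63.5 to 87.8 in UCLA TBIN rats, from 38.4 to 67.4 in UEF TBIE rats and from 39.6 to 64.2 in UEF TBIN rats. miR-297 had 0 counts in all 3 UCLA TBIE rats and from 14 to 52 counts in the other 11. The same low levels appeared in other rats of the series that were not TBIE: the 3 sham and 3 TBIN rats of the third site, Monash, had 6.5 to 9.52 CPM of miR-673-3p, while the 2 Monash TBIE rats had 41 and 55.3. For 21 of the 70 miRNAs, these 6 Monash rats and the 3 UCLA TBIE rats all lay below the other 20 rats. For 0 of the 29 high miRNAs did these 9 libraries all lie above the other 20. At least miR-433-5p, picked out after its values were seen, came close. It ran from 35.1 to 50.8 CPM in UCLA TBIE, 28.2 to 48.8 in Monash sham and 24.3 to 32.3 in Monash TBIN rats. The other 20 rats had at most 27.1 CPM, in a UEF sham rat. The 9 libraries are neighbours in the deposited table, columns 15 to 23 of the 29 rats. The labels name no batch for them, so epilepsy and membership in this group of libraries cannot be told apart among the UCLA rats.

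4 of these miRNAs are shown because they set the 9 libraries apart most plainly. The hairpins of miR-673, miR-667 and miR-337 lie on chromosome 6 and that of miR-708 on chromosome 1. miR-667-3p and miR-337-3p belong to the imprinted miRNA list treated below.
miR-673-3p: uCCGGGACugaguucugugcac
miR-708-3p: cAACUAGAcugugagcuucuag
miR-667-3p: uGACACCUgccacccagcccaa
miR-337-3p: uUCAGCUCcuauaugaugccuuu

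**Figure D1:**
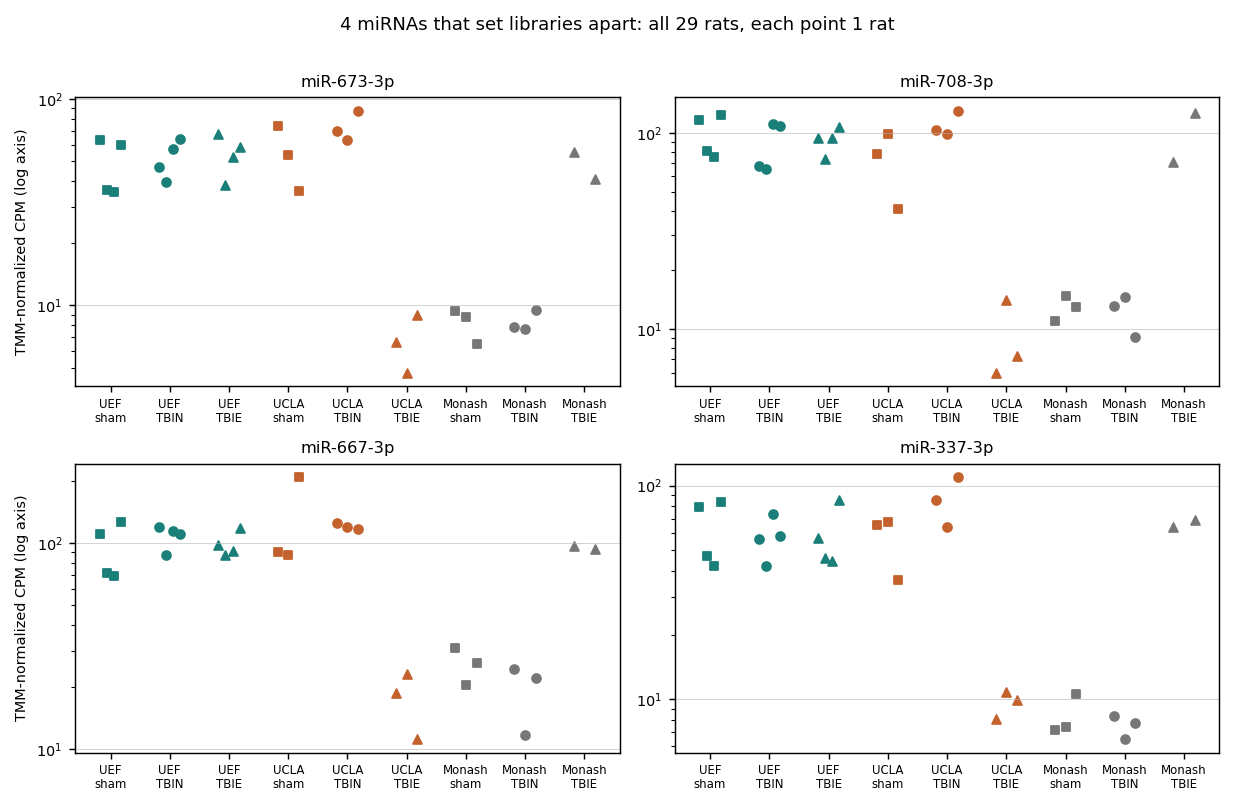
Level of miR-673-3p, miR-708-3p, miR-667-3p and miR-337-3p in all 29 rats, in TMM-normalized CPM on a log axis, by site and group, with 1 point per rat. In each panel the 3 UCLA TBIE rats and the Monash sham and TBIN rats lie below all other rats.

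Between the injured rats of the sites, 37 of 746 miRNAs differed, which is 4.96% of those tested (edgeR quasi-likelihood test with outcome in the model, Benjamini-Hochberg adjusted p below 0.05). Of these, 16 were higher at UEF (2.14%) and 21 were lower (2.82%), and 28 had a log2 fold change beyond 1 in either direction. At an unadjusted p below 0.05 there were 158 of 746, and DESeq2 called 97, of which 50 were higher at UEF. The list counts given below are to be read against these. Most miRNAs differed little: the median log2 fold change (UEF over UCLA) over all 746 was 0.11, and 89.8% lay within 1 log2 unit. Scaled to miR-28-3p, the reference miRNA used in the study, the median over all miRNAs rose to 0.41 and the split became 40 higher and 15 lower, with all 37 keeping their direction. Without the 3 UCLA TBIE rats, 22 of 749 miRNAs differed (2.94%), 10 higher (1.34%) and 12 lower (1.6%), and 17 of the 37 were among them. All 37 kept their direction in that fit. The count moved with single rats, from 18 without UCLA TBIE rat 3, 21 without UCLA TBIE rat 2 and 24 without UEF TBIE rat 1 to 81 without UEF TBIN rat 2, and 17 of the 37 passed whichever rat was left out. In CPM the groups did not overlap for 7 of 746 miRNAs (0.938%), and 4 of these were among the 37: miR-143-5p, miR-122-5p, miR-3591 and miR-1188-3p, the last of which was picked out after its values were seen. The other 3 were miR-181a-5p, miR-150-3p and miR-150-5p, also picked out afterwards, which were lower at UEF and missed the threshold (adjusted p in edgeR = 0.0636, 0.0663 and 0.0957).

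The cartilage miRNAs were lower at UEF, all 4 of 4. miR-140, needed for cartilage growth, and miR-455, which is made together with cartilage collagens, had a median log2 fold change of −2.56, against 0.11 over all miRNAs. miR-140-3p ran from 4750 to 10200 CPM at UEF with a median of 7140, and from 9540 to 65100 CPM at UCLA with a median of 46800. Every UEF rat lay below 5 of the 6 UCLA rats, and UCLA TBIE rat 1, at 9540 CPM, lay within the UEF range. The log2 fold change of miR-140-3p was −2.52 (SE 0.34, adjusted p in edgeR = 0.000942), and no other miRNA had a lower p. The other arm, miR-140-5p, had a median of 358 CPM at UEF and 1290 CPM at UCLA (log2 fold change −2.07, SE 0.32, adjusted p in edgeR = 0.00195). miR-455-5p ran from 86.9 to 149 CPM at UEF with a median of 115, and from 64.9 to 1080 CPM at UCLA with a median of 737 (log2 fold change −2.60, SE 0.41, adjusted p in edgeR = 0.00195). miR-455-3p had medians of 99.7 CPM at UEF and 606 CPM at UCLA (log2 fold change −2.59, SE 0.47, adjusted p in edgeR = 0.00372). In these 4 miRNAs the UCLA values split into 5 high rats and 1 low one, UCLA TBIE rat 1, with 64.9 CPM of miR-455-5p where the other 5 had 529 or more. Without that rat the change of miR-455-5p was −2.84 (adjusted p in edgeR = 1.57e-06), and without all 3 UCLA TBIE rats the 4 cartilage miRNAs were still lower at UEF, with a median log2 fold change of −2.44.

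The chromosome X group of miR-322, miR-503 and miR-351 was lower at UEF in 7 of its 11 measured members, and 10 of 11 had a negative log2 fold change, with a median of −1.48. These miRNAs are known from embryonic tissue, muscle precursors and the cell cycle. miR-503-3p ran from 102 to 317 CPM at UEF with a median of 273, and from 111 to 2460 CPM at UCLA with a median of 1970. UCLA TBIE rat 1 had the 111 CPM, and the next UCLA rat had 1340. The log2 fold change of miR-503-3p, −2.93 (SE 0.50, adjusted p in edgeR = 0.00199), was the lowest of all 746 miRNAs. miR-503-5p, from the other arm, had medians of 61.7 CPM at UEF and 218 CPM at UCLA (log2 fold change −1.82, SE 0.31, adjusted p in edgeR = 0.00199). miR-322-3p had medians of 77 CPM at UEF and 382 CPM at UCLA (log2 fold change −2.35, SE 0.39, adjusted p in edgeR = 0.00199). The 2 arms of miR-351 were lower together, the 3p arm by −2.52 (SE 0.43, adjusted p in edgeR = 0.00199) and the 5p arm by −1.99 (SE 0.37, adjusted p in edgeR = 0.00372). miR-542-5p (log2 fold change −1.48, SE 0.28, adjusted p in edgeR = 0.00391) and miR-450b-3p (−1.35, SE 0.27, adjusted p in edgeR = 0.00633) completed the 7. The 7 calls held whichever rat was left out, and all 7 were also made without the 3 UCLA TBIE rats.

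Other arms of these hairpins missed the threshold. miR-322-5p, the arm that carries the miR-16 seed, had a log2 fold change of −0.79 (SE 0.32, adjusted p in edgeR = 0.15) and medians of 129 CPM at UEF and 243 CPM at UCLA. miR-542-3p had a log2 fold change of −0.19 (SE 0.24, adjusted p in edgeR = 0.688), and its values overlapped throughout, 161 to 311 CPM at UEF and 150 to 353 CPM at UCLA. The other miRNAs that begin the seed with AGCAGC did not pass the test: miR-16-5p had a log2 fold change of −0.53 (SE 0.31), miR-15b-5p of −0.14, miR-195-5p of −0.11 and miR-497-5p of 0.29, with adjusted p in edgeR of 0.357 or higher. miR-351-5p shares its seed with miR-125a-5p and miR-125b-5p, which had positive log2 fold changes of 0.60 and 0.75. Both were looked up for the seed after the values were seen. Among the hairpins with a called miRNA, 6 had both arms past the test. Over all 270 hairpins with both arms tested, the arms had the same sign in 165 (61.1%).

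**Figure D2:**
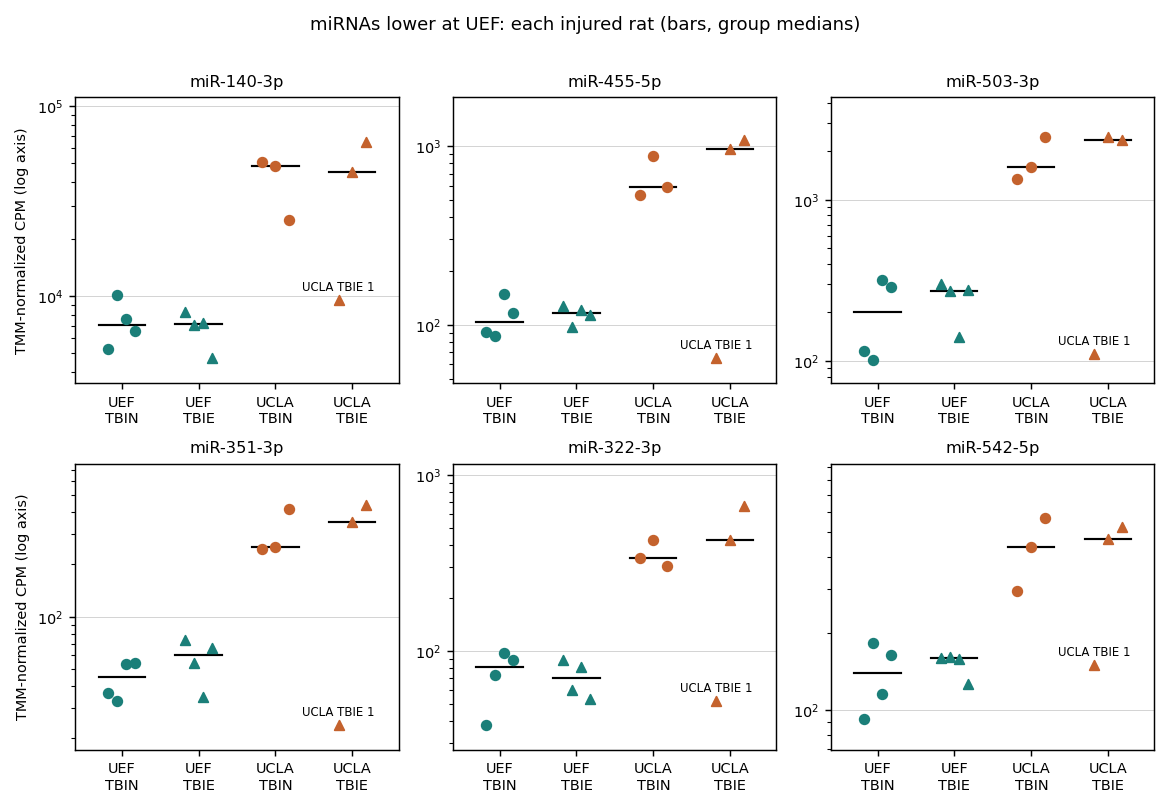
Level of 6 miRNAs lower at UEF in each of the 14 injured rats, in TMM-normalized CPM on a log axis, by site and outcome, with group medians as bars. In each panel UCLA TBIE rat 1 lies within or below the range of the UEF rats and the other 5 UCLA rats lie above all UEF rats.

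A second, smaller set of miRNAs lower at UEF came from the miR-17/92 clusters, which drive cell proliferation and are abundant in blood-forming cells. Of 25 members tested, 3 passed the test, all lower at UEF, against 21 of 746 called lower among all miRNAs (2.82%). In all, 20 of the 25 had negative log2 fold changes (median −0.40). miR-363-3p ran from 41.6 to 75.2 CPM at UEF and from 56 to 149 CPM at UCLA (log2 fold change −0.86, SE 0.21, adjusted p in edgeR = 0.0279). miR-20b-5p, from the same hairpin cluster on chromosome X, was lower by a similar step (−0.67, SE 0.17, adjusted p in edgeR = 0.0302), and miR-18a-5p, from the chromosome 15 cluster, was the third (−0.78, SE 0.22, adjusted p in edgeR = 0.0479). This X cluster lies 377285 bases from the miR-322 group. None of the 3 passed without the 3 UCLA TBIE rats (adjusted p in edgeR of 0.537 to 0.662). Each was also lost with single rats left out: miR-363-3p without UEF TBIE rats 1 or 3, UCLA TBIE rats 2 or 3 or UCLA TBIN rats 1 or 2 (highest adjusted p in edgeR = 0.0737), miR-20b-5p in 8 of the 14 fits and miR-18a-5p in 10 of them. miR-92a-3p had medians of 19100 CPM at UEF and 29400 CPM at UCLA and did not pass (log2 fold change −0.57, adjusted p in edgeR = 0.102).

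miR-301a-3p ran from 49.3 to 104 CPM at UEF and from 102 to 232 CPM at UCLA (log2 fold change −0.97, SE 0.22, adjusted p in edgeR = 0.0147). Its call was lost without UCLA TBIE rat 3 (adjusted p in edgeR = 0.0513) and without all 3 UCLA TBIE rats (−0.56, adjusted p in edgeR = 0.426). The remaining miRNAs lower at UEF, picked out after their values were seen, were miR-149-5p, miR-1188-3p, miR-1949, miR-383-5p, miR-6330 and miR-181b-5p, with miR-1188-3p the smallest difference and miR-149-5p the largest. miR-149-5p had 114 CPM in UCLA TBIE rat 1 and 599 to 1040 CPM in the other 5 UCLA rats, against 132 to 365 CPM at UEF (log2 fold change −1.5, SE 0.38). It was the only one of the 6 to pass without the UCLA TBIE rats (log2 fold change −1.63, adjusted p in edgeR = 0.0367), and lost its call in 9 of the 14 fits that left out a single rat (highest adjusted p in edgeR = 0.109). miR-1188-3p ran from 36.5 to 69 CPM at UEF and from 75.3 to 99.8 CPM at UCLA, so the sites did not overlap, and had a log2 fold change of −0.76 (SE 0.19, adjusted p in edgeR = 0.0279), a call lost in 5 of the 14 fits.

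Vessel wall miRNAs were higher at UEF. miR-143 and miR-145, made from 1 transcript and required for the contractile state of smooth muscle, gave 3 calls among the 6 vessel miRNAs tested (median log2 fold change 1.62). miR-143-5p ran from 94.2 to 331 CPM at UEF with a median of 162, and from 30.7 to 93.3 CPM at UCLA with a median of 53. Every UEF rat lay above every UCLA rat, by a narrow margin at UCLA TBIE rat 1, which had the 93.3 CPM. The log2 fold change was 1.86 (SE 0.35, adjusted p in edgeR = 0.00372). miR-145-3p ran from 27.5 to 144 CPM at UEF and from 6.05 to 48.1 CPM at UCLA (log2 fold change 2.12, SE 0.40, adjusted p in edgeR = 0.00372). miR-145-5p ran from 1210 to 7530 CPM at UEF and from 556 to 1260 CPM at UCLA (log2 fold change 2.20, SE 0.44, adjusted p in edgeR = 0.00567). In all 3 the highest UCLA value was that of UCLA TBIE rat 1. The fourth arm, miR-143-3p, had medians of 10900 CPM at UEF and 3450 CPM at UCLA and missed the threshold (1.39, SE 0.45, adjusted p in edgeR = 0.0791), but passed without the 3 UCLA TBIE rats (2.19, adjusted p in edgeR = 0.0383). In that fit miR-143-5p and miR-145-3p also passed and miR-145-5p did not (2.27, adjusted p in edgeR = 0.0721). The endothelial miR-126a-3p did not pass (log2 fold change 0.40, SE 0.47, adjusted p in edgeR = 0.652).

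The liver miRNAs were higher at UEF. miR-122-5p, by far the main miRNA of hepatocytes, ran from 23200 to 261000 CPM at UEF with a median of 51500, and from 6000 to 21600 CPM at UCLA with a median of 16300. The lowest UEF rat lay above the highest UCLA rat, and the UEF rats were spread over a range of their own that reached from 23200 in TBIN rat 2 to 261000 in TBIN rat 4. The log2 fold change was 2.57 (SE 0.55, adjusted p in edgeR = 0.0104), and the call held whichever rat was left out. Its other arm, miR-122-3p, was at 29.6 to 340 CPM at UEF and 18.5 to 36.5 CPM at UCLA (2.03, SE 0.56, adjusted p in edgeR = 0.0454) and was lost in 10 of the 14 fits that left out a rat (highest adjusted p in edgeR = 0.114). miR-3591 was higher by 2.36 (SE 0.54, adjusted p in edgeR = 0.0181), and lost its call without UEF TBIE rat 1 (adjusted p in edgeR = 0.0502). Its hairpin lies on the strand opposite to Mir122 at the same place, and whether the counting used strand is not given in the sources used here, so it is not independent evidence. The remaining members of the liver list, the arms of miR-802, had positive values without passing (miR-802-5p 0.78, adjusted p in edgeR = 0.0627). Without the 3 UCLA TBIE rats none of the 5 liver locus miRNAs passed in edgeR, although the fold change of miR-122-5p was larger (3.01, adjusted p in edgeR = 0.0674), and DESeq2 on all 14 rats called 5 of 5. The liver, gut and kidney miRNAs miR-192, miR-194 and miR-215 gave 0 calls among 5 in edgeR, with 3 at an unadjusted p below 0.05 and 1 call in DESeq2. miR-192-5p had a log2 fold change of 0.95 (adjusted p in edgeR = 0.164) and miR-215 of −1.03 (adjusted p in edgeR = 0.0571), so the list did not have 1 direction.

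A few muscle miRNAs had large fold changes with a wide spread among the UEF rats, while the 13 of the list had a median log2 fold change of 0.69. miR-133a-3p and miR-133b-3p, near-identical muscle miRNAs that the table counts as 1, ran from 292 to 30100 CPM at UEF with a median of 1280, and from 98 to 382 CPM at UCLA with a median of 183. UEF TBIN rat 2 had the 30100 CPM and UEF TBIE rat 2 had 7110, whereas UEF TBIN rat 3, at 292, lay within the UCLA range. The log2 fold change was 4.46 (SE 1.12, adjusted p in edgeR = 0.0279), and without UEF TBIN rat 2 it was 2.51 (adjusted p in edgeR = 0.00916). The call was lost without UEF TBIE rat 2, UCLA TBIE rats 2 or 3, or UCLA TBIN rats 1 or 2 (highest adjusted p in edgeR = 0.0832), and without all 3 UCLA TBIE rats (5.92, adjusted p in edgeR = 0.088). Among 13 striated muscle miRNAs this was the only one to pass in edgeR, and 8 had an unadjusted p below 0.05. DESeq2 called 4 of the 13, but gave no adjusted p for the joined miR-133a-3p and miR-133b-3p. miR-206-3p, made in skeletal muscle, reached 14100 CPM in the same UEF TBIN rat 2 and ran from 130 to 623 CPM at UCLA (3.42, SE 1.00, adjusted p in edgeR = 0.0571), and without that rat it passed at a smaller size (1.67, adjusted p in edgeR = 0.0443). The cardiac miR-208b-3p differed less (0.67, SE 0.24, adjusted p in edgeR = 0.108). Beyond the list, miR-133c (3.86, SE 1.00, adjusted p in edgeR = 0.0305) and miR-3571 (2.34, SE 0.58, adjusted p in edgeR = 0.0279) also passed, and their hairpins lie on the strands opposite to Mir133a1 and Mir1. Without UEF TBIN rat 2 these were 1.98 and 1.79 (adjusted p in edgeR = 0.0262 and 0.02). The call of miR-133c was lost in 6 of the 14 fits that left out a rat (highest adjusted p in edgeR = 0.0845) and that of miR-3571 in 5 (highest 0.0762). Without the 3 UCLA TBIE rats neither passed (adjusted p in edgeR = 0.136 and 0.113). DESeq2 gave no adjusted p for miR-133c. As with miR-3591 the strand used in counting is not given, so these 3 are uncertain as miRNAs of their own.

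**Figure D3:**
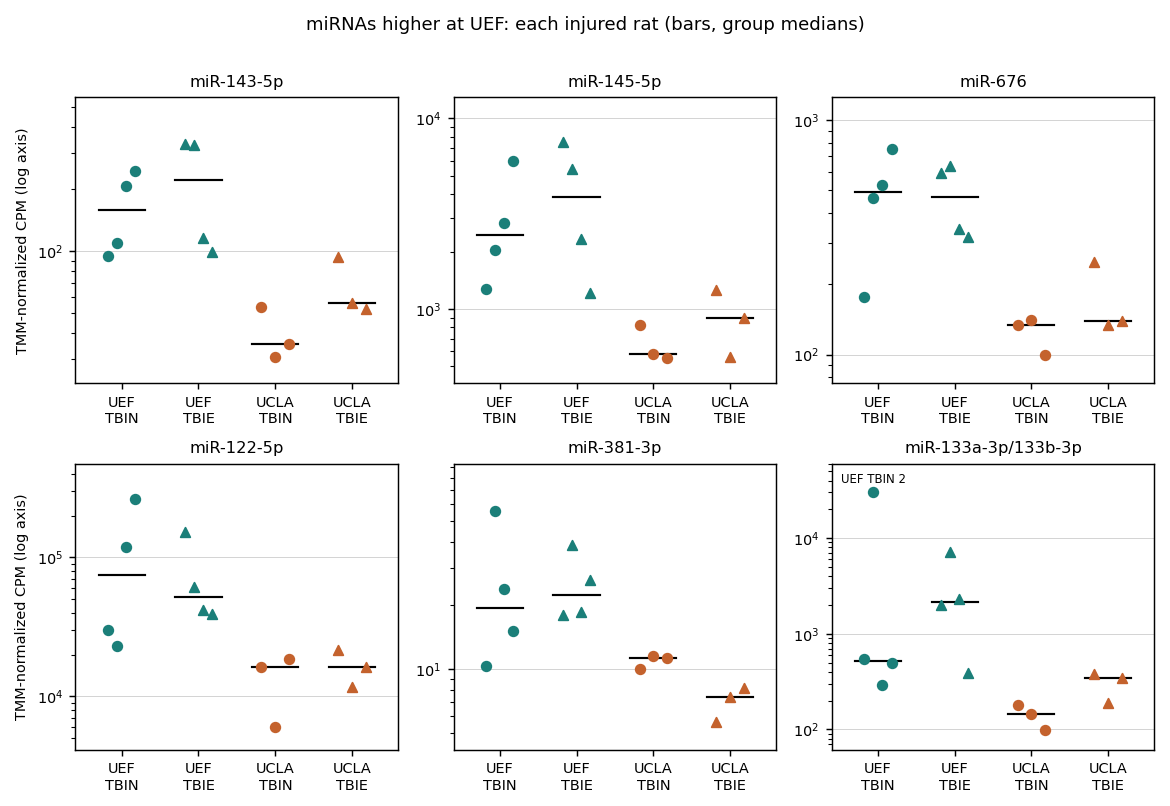
Level of 6 miRNAs higher at UEF in each of the 14 injured rats, in TMM-normalized CPM on a log axis, by site and outcome, with group medians as bars. miR-143-5p and miR-122-5p do not overlap between the sites, and UEF TBIN rat 2 holds the highest value of the joined miR-133a-3p and miR-133b-3p.

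Other miRNAs higher at UEF belonged to no one tissue. miR-676 ran from 175 to 751 CPM at UEF and from 99.9 to 248 CPM at UCLA (log2 fold change 1.69, SE 0.33, adjusted p in edgeR = 0.00451), a call kept without any single rat and without the 3 UCLA TBIE rats (2.01, adjusted p in edgeR = 0.0203). miR-490-3p, whose hairpin lies in the gene of a muscarinic receptor, ran from 32.1 to 75.3 CPM at UEF and from 8.6 to 34.8 CPM at UCLA (1.23, SE 0.29, adjusted p in edgeR = 0.0187). In the TBIN rats alone its change was 0.56 and in the TBIE rats 1.99, and it did not pass without the 3 UCLA TBIE rats (0.64, adjusted p in edgeR = 0.326) or without UCLA TBIE rats 2 or 3 alone (highest adjusted p in edgeR = 0.0556). miR-205, an epithelial miRNA of skin and glands picked out after its values were seen, ran from 2180 to 24700 CPM at UEF and from 847 to 5480 CPM at UCLA (2.37, SE 0.65, adjusted p in edgeR = 0.0454). Its highest UCLA value was again that of UCLA TBIE rat 1, and the change was 2.83 without it (adjusted p in edgeR = 0.0124). The call was lost in 8 of the 14 fits that left out a rat, and held without the 3 UCLA TBIE rats (3.65, adjusted p in edgeR = 0.0237).

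In the brain lists 2 of 32 miRNAs passed (6.25%, against 2.14% of all miRNAs called higher at UEF), both higher at UEF. Among 22 neuron miRNAs, 1 passed in edgeR: miR-138-1-3p, at 32.8 to 62.5 CPM at UEF and 20.3 to 38 CPM at UCLA (0.72, SE 0.19, adjusted p in edgeR = 0.0422). DESeq2 called 5 of the 22, against 97 among all miRNAs. The call of miR-138-1-3p was lost in 10 of the 14 fits that left out a rat, and without the 3 UCLA TBIE rats (0.59, adjusted p in edgeR = 0.26). miR-128-3p had a negative log2 fold change of −0.74 (SE 0.30, adjusted p in edgeR = 0.152), and miR-129-5p had 0.71 (adjusted p in edgeR = 0.102). Among 10 oligodendrocyte and choroid plexus miRNAs, 1 passed: miR-211-5p, at 22.9 to 48.9 CPM at UEF and 7.89 to 40 CPM at UCLA, where UCLA TBIE rat 1 held the 40 CPM and the next rat had 13.8 (1.17, SE 0.32, adjusted p in edgeR = 0.0449). This call was lost in 9 of the 14 fits that left out a rat. miR-204-5p, which shares its seed, had 63.5 to 212 CPM at UEF and 18 to 112 CPM at UCLA (1.33, SE 0.44, adjusted p in edgeR = 0.0841). Without the 3 UCLA TBIE rats both passed, miR-211-5p at 1.73 (adjusted p in edgeR = 0.00452) and miR-204-5p at 2.58 (adjusted p in edgeR = 0.00171).

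The imprinted miR-379/410 cluster and the miRNAs antisense to Rtl1, expressed from the maternal chromosome in brain and muscle, had 2 calls among 84 members tested, both higher at UEF, which at 2.38% is close to the 2.14% of all miRNAs. In edgeR 12 had an unadjusted p below 0.05, against 158 of 746 among all miRNAs. DESeq2 called 7, against 97 among all miRNAs. miR-381-3p ran from 10.4 to 55.6 CPM at UEF and from 5.61 to 11.5 CPM at UCLA (1.54, SE 0.35, adjusted p in edgeR = 0.0147), with UEF TBIN rat 2 again highest. miR-323-3p ran from 36.2 to 91.5 CPM at UEF and from 18.2 to 37.9 CPM at UCLA (0.91, SE 0.22, adjusted p in edgeR = 0.0208), and lost its call without UCLA TBIE rats 2 or 3 (highest adjusted p in edgeR = 0.0585). The cluster as a whole had a median log2 fold change of 0.25, which was 0.12 without the 3 UCLA TBIE rats, near that of all miRNAs, and miR-434-3p, abundant in muscle and brain, had 0.91 (SE 0.29, adjusted p in edgeR = 0.0762). Neither call held without the 3 UCLA TBIE rats (miR-381-3p 1.35, adjusted p in edgeR = 0.225, and miR-323-3p 1.04, adjusted p in edgeR = 0.133). The list leaves out miR-1188-3p, whose hairpin lies between Mir337 and Mir323 on the same chromosome. That miRNA was called in the other direction, lower at UEF (−0.76).

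The blood cell miRNAs gave 0 calls in edgeR. The 5 red cell miRNAs had log2 fold changes of −0.08 to −0.44, with 0 at an unadjusted p below 0.05 and 0 calls in DESeq2, and their median turned to 0.52 without the 3 UCLA TBIE rats. miR-451-5p ran from 604 to 7070 CPM at UEF and from 815 to 3890 CPM at UCLA. The log2 ratio of miR-451 to miR-23a-3p, a measure of red cell lysis in plasma, was −2.09 ± 0.73 (SD, n = 8) at UEF and −1.84 ± 0.50 (n = 6) at UCLA (two-sided exact permutation p = 0.487). The 6 platelet and white cell miRNAs were all negative, with a median of −0.74, and that median was −0.17 without the 3 UCLA TBIE rats. In edgeR 4 of them had an unadjusted p below 0.05, and DESeq2 called 3 lower at UEF. miR-150-5p, a lymphocyte miRNA, ran from 11700 to 37800 CPM at UEF and from 38300 to 57600 CPM at UCLA (−0.74, SE 0.25, adjusted p in edgeR = 0.0957), and miR-223-3p, of neutrophils and platelets, had −0.27 (SE 0.32, adjusted p in edgeR = 0.653).

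In the remaining lists none passed in edgeR. Among all 746 miRNAs, 158 had an unadjusted p below 0.05 in edgeR, and DESeq2 called 97. The inflammation miRNAs had a median of −0.02 over 8, where miR-155-5p of activated immune cells came nearest (−0.81, SE 0.25, adjusted p in edgeR = 0.0657) and was the only one at an unadjusted p below 0.05 and the only DESeq2 call. The pancreas miRNAs had a median of 0.23 over 8, with 1 at an unadjusted p below 0.05 and 1 DESeq2 call, and the islet miRNA miR-375-3p had 1.07 (SE 0.37, adjusted p in edgeR = 0.101). The Hox-embedded miRNAs had 0.65 over 11, with 3 at an unadjusted p below 0.05 and 0 DESeq2 calls, and the epithelial miR-200 family 0.26 over 9, with 1 and 0. The miR-30 family had 0.32 over 11, with 1 and 1, and the let-7 family 0.07 over 20, with 1 and 0. The cluster of miR-214 and miR-199 had 0.49 over 4, with 1 and 0. The miR-29 family (0.35 over 7), the family of miR-34 and miR-449 (0.16 over 10), the cluster of miR-183, miR-96 and miR-182 (−0.04 over 4) and the H19 miRNA miR-675 (−0.43 over 2) had 0 at an unadjusted p below 0.05 and 0 DESeq2 calls. Scaled to miR-28-3p the medians of the inflammation and miR-183 cluster lists turned positive (0.26 and 0.24), and the other lists of the 23 kept the sign of their median under every scaling. Without the 3 UCLA TBIE rats, the median was 0.98 for the miR-200 family, 0.84 for miR-29, 0.71 for miR-30, 0.56 for the miR-183 cluster, 0.44 for the pancreas list and 0.2 for let-7. It was 0.46 for the Hox-embedded list, 0.21 for miR-214 and miR-199, 0.06 for miR-34 and miR-449, 0.01 for the inflammation list and −0.22 for miR-675.

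The sites were next compared within each outcome. In the TBIN rats, 4 at UEF and 3 at UCLA, 18 of 749 miRNAs differed (2.4%), 8 higher and 10 lower at UEF. In the TBIE rats, 4 and 3, 120 differed (16%), 75 higher and 45 lower. All 3 UCLA rats of the TBIE contrast are the libraries that stood apart. The site and that group of libraries cannot be told apart in it, so the counts 120 and 18 do not compare the outcomes. All 37 miRNAs of the joint comparison had the same direction in both outcomes, which their choice on the same 14 rats largely fixes, and 13 passed in the TBIN and 24 in the TBIE rats. Over all 746 miRNAs, 403 (54%) had the same direction in both outcomes. miR-140-3p had a log2 fold change of −2.49 in TBIN and −2.55 in TBIE rats, miR-503-3p of −3.13 and −2.73, and miR-145-5p of 2.21 and 2.19. The count in the TBIN rats rested on single rats: it was 0 without UEF TBIN rat 4, UCLA TBIN rat 2 or UCLA TBIN rat 3, with 73, 80 and 73 miRNAs at an unadjusted p below 0.05 in edgeR, and no other tool was run on this contrast.

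The site difference itself differed by outcome for 28 of 749 miRNAs (3.74%, edgeR interaction), 25 of them with a site difference (UEF over UCLA) more negative in TBIN than in TBIE rats. None of the 37 miRNAs of the joint comparison was among the 28. For 25 of the 28, the 3 UCLA TBIE rats lay wholly outside the other 11 injured rats, which are the libraries described above as standing apart. Values are given for the lowest p among these, chosen after they were seen. miR-673-3p had a log2 fold change of −0.50 in TBIN and 2.98 in TBIE rats (interaction −3.48, SE 0.41, adjusted p in edgeR = 0.000154). miR-708-3p had −0.32 and 3.33 (interaction −3.65, SE 0.46, adjusted p in edgeR = 0.000202), miR-337-3p −0.58 and 2.59 (−3.17, SE 0.42, adjusted p in edgeR = 0.000252) and miR-667-3p −0.15 and 2.47 (−2.62, SE 0.38, adjusted p in edgeR = 0.000613). Since sham and TBIN rats of Monash had the same low levels, the outcome and the group of libraries cannot be told apart here. Most of the 28 had few counts in the UCLA TBIE rats, and 1 of them had at least 100 counts in every rat. miR-190a-5p, picked out after its values were seen, was one of the 3 for which the UCLA TBIE rats did overlap the rest, and had a log2 fold change of 2.22 in TBIN rats (adjusted p in edgeR = 0.0382) and of −0.49 in TBIE rats (adjusted p in edgeR = 0.476, interaction 2.71, SE 0.63, adjusted p in edgeR = 0.0189).

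**Figure D4:**
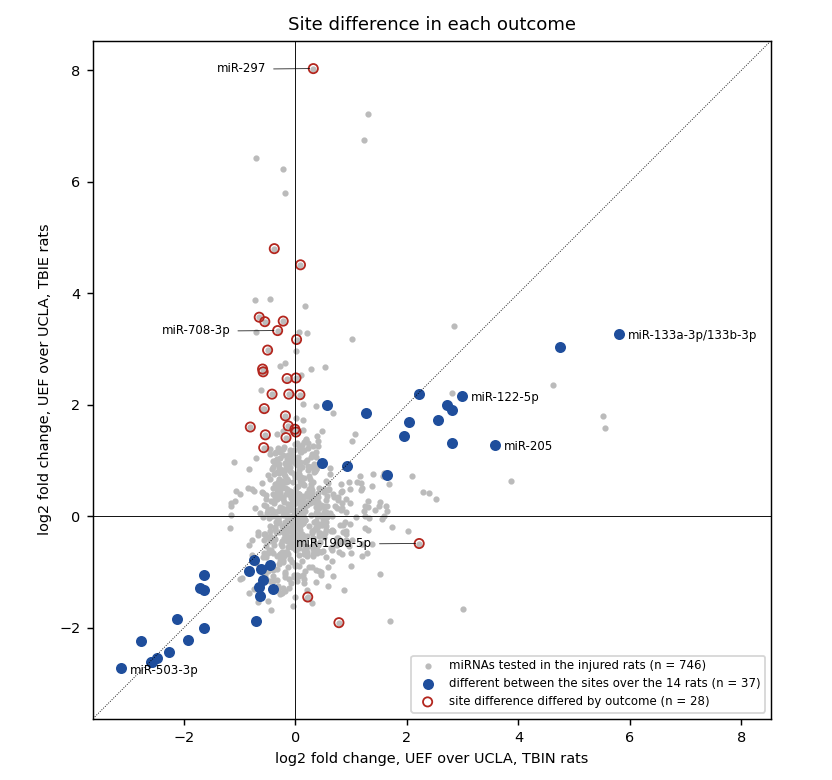
Log2 fold change of UEF over UCLA in TBIN rats (x axis) and TBIE rats (y axis), with 1 point per miRNA, the 37 miRNAs of the joint comparison in blue, and open circles for the 28 whose site difference differed by outcome. The blue points have the same sign on both axes, whereas most open circles are near 0 on the x axis and positive on the y axis.

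The sham-operated rats give the same site contrast in animals without a pressure pulse, with no rat in common with the injured rats. Of 739 miRNAs, 21 differed between UEF and UCLA sham rats (2.84%), 14 higher and 7 lower at UEF. Of the 37 miRNAs of the injured rats, 32 had the same direction in sham rats and 7 passed there too. Over all 738 miRNAs tested in both, 408 had the same direction (55.3%). miR-140-3p had −2.07 in sham rats (SE 0.49, adjusted p in edgeR = 0.0416), miR-503-3p −2.53 (adjusted p in edgeR = 0.0307) and miR-351-3p −2.19 (adjusted p in edgeR = 0.0307). These were the only members of their sets to pass there, 1 of 4 cartilage and 2 of 11 chromosome X miRNAs. The sham medians were −1.47 for the cartilage set and −0.76 for the chromosome X set, against −2.56 and −1.48 in injured rats. miR-122-5p was higher at UEF by 5.35 in sham rats (adjusted p in edgeR = 0.0019), a larger value than the 2.57 of the injured rats, and miR-143-5p by 2.63 without passing (adjusted p in edgeR = 0.0517). The 5 with opposite signs were miR-205 (2.37 in injured and −0.62 in sham rats), miR-138-1-3p (0.72 and −1.28), miR-1949, miR-1188-3p and miR-20b-5p, of which all but miR-138-1-3p were within 1 log2 unit in sham rats. With DESeq2's size factors in edgeR the sham count was 3, and leaving out single sham rats moved it from 3 (without UEF sham rat 2) to 38 (without UEF sham rat 3). UEF sham rat 3 had 55.1% of its counts in miR-122-5p, and the other 3 UEF sham rats had 28.1% to 41.3%, against 1.76% to 2.68% at UCLA.

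**Figure D5:**
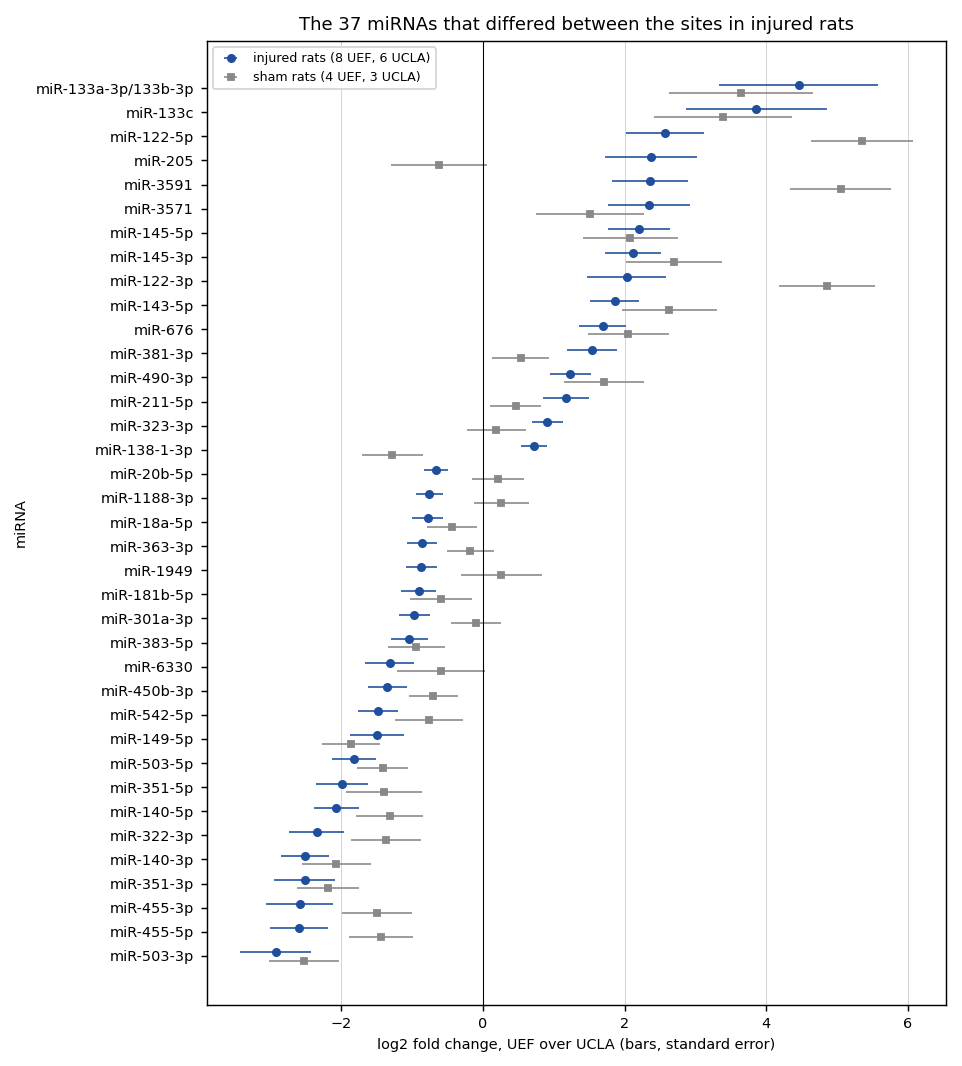
Log2 fold change of UEF over UCLA for the 37 miRNAs, in injured rats (circles) and in sham rats (squares). Bars are standard errors derived from the F statistic of each test. The values lie on the same side of 0 for 32 of the 37, and miR-205 and miR-138-1-3p are on opposite sides.

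A test of the difference between the injured and the sham contrast passed for 8 of 752 miRNAs (1.06%, edgeR interaction over 21 rats), and 1 of the 37 was among them. miR-138-1-3p differed by 1.98 (SE 0.41, adjusted p in edgeR = 0.0286). For miR-122-5p the difference was −2.84 (SE 0.88, adjusted p in edgeR = 0.0978). The 8 rested on single rats: 0 passed without UEF sham rat 2, UEF sham rat 3 or UCLA TBIN rat 2, with 126, 97 and 118 at an unadjusted p below 0.05 in edgeR.

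Totals and the number of detected miRNAs were compared last. Total miRNA counts were 3090154.6 ± 1017320.7 (SD, n = 8) at UEF and 2800025.2 ± 721488.9 (n = 6) at UCLA (two-sided exact permutation p = 0.556). At 10 or more counts, 738 ± 5.8 (n = 8) of the 754 miRNAs were detected at UEF and 714.2 ± 19.0 (n = 6) at UCLA, a difference of 23.8 (two-sided exact permutation p = 0.0023, or 0.007 after adjustment over 3 measures by Benjamini-Hochberg). The UCLA TBIE rats had 688 to 704 and the UCLA TBIN rats 726 to 733, against 730 to 748 at UEF. Without the UCLA TBIE rats the difference was 7.3 (two-sided exact permutation p = 0.097), and with all 14 rats thinned to the lowest total it was 27.5 (two-sided exact permutation p = 0.23).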

How the data were processed

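Small RNA of tail-vein plasma was sequenced in 29 rats, 1 library per rat. Per the study's methods and the labels, the authors used the QIASeq miRNA kit on an Illumina NextSeq, trimmed adapters with cutadapt, aligned with bowtie to the rat genome Rnor_6.0 and annotated with miRBase. The deposited values are raw whole-number counts per miRNA. Whether reads with the same molecular identifier were merged, and whether strand was used, is not given in the sources used here, so errors cover counting and the spread between rats only. The table holds 754 names, of which 7 join several mature miRNAs.

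The 8 UEF and 6 UCLA injured rats were compared with edgeR 4.0.16 (R 4.3.3, quasi-likelihood F test, TMM factors, filterByExpr minimum count 10, outcome and site in the model). The filter left 746 miRNAs and dropped 8. P-values were adjusted by Benjamini-Hochberg over all tested miRNAs, with a threshold of 0.05. Log2 fold changes are UEF over UCLA, as given by the fit. Their standard errors (SE) were derived from the test, as the absolute log2 fold change over the square root of its F statistic. A prior count of 2 was used for log2 CPM, as in the correlations between rats. Outcomes, sham rats and interactions were fitted likewise. Totals, detected miRNAs and the red cell ratio had two-sided exact permutation tests over 3003 regroupings. The scripts were tested on simulated data. DESeq2 1.42.0 and other scalings, filters and covariates were alternatives, as was leaving out each rat. Leaving out the 3 UCLA TBIE rats was chosen after seeing the data.

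The comparison, the 23 lists and the tests were chosen with earlier results of these data known. The text names the 12 miRNAs of lowest p in each direction, the other arms of their hairpins and up to 4 members per list (the 2 of lowest p and the 2 of highest mean count). Others are named as chosen afterwards. Sequences and positions come from RefSeq GRCr8, not from Rnor_6.0.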

Additional observations from a re-analysis of the deposited data

Results flagged for a closer look

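Among 218 groups of 4 to 10 rats examined, 21 (9.63%) held a rat far from the others of its site. Chance would give about 1 in 20 among independent groups. These groups reuse the same 14 rats and hold arms of the same hairpins, so the share cannot be set against that rate. UCLA TBIE rat 1 accounted for 11 of the 21. It was lowest of the UCLA rats, in CPM, for miR-455-5p (64.9), miR-455-3p (51.2), miR-322-3p (51.9), miR-351-3p (23.9), miR-351-5p (472), miR-503-3p (111), miR-149-5p (114), miR-675-3p (6.67) and miR-34b-3p (30.9), and highest for miR-676 (248) and miR-211-5p (40). Of the cartilage and chromosome X miRNAs among these, it lay within the range of the UEF rats for miR-455-3p, miR-322-3p, miR-351-5p and miR-503-3p and below every UEF rat for miR-455-5p and miR-351-3p. UEF TBIN rat 2 was highest of the UEF rats for miR-133a-5p (86.6) and miR-375-3p (5480) and lowest for miR-150-5p (11700) and miR-450b-3p (17.9). Single flags, also in CPM, fell on UCLA TBIN rat 2 for miR-3591 (146, low), UCLA TBIE rat 2 for miR-215 (8020, high), UCLA TBIE rat 3 for miR-10a-3p (46.5, high), UCLA TBIN rat 3 for miR-128-3p (4540, low), UEF TBIE rat 4 for miR-379-3p (59.2, low) and UEF TBIN rat 1 for miR-199a-3p (2150, low).

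The site difference differed between outcomes, as TBIN minus TBIE on the log2 scale, by −3.48 for miR-673-3p, −3.65 for miR-708-3p, −3.17 for miR-337-3p, −2.62 for miR-667-3p and −1.98 for miR-137-3p (highest adjusted p in edgeR = 0.00865). The outcome cannot be told apart there from the group of libraries that stood apart.

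The site difference differed between injured and sham rats, as injured minus sham, by 1.98 for miR-138-1-3p, −3.15 for miR-101b-3p, 2.74 for miR-24-1-5p, 1.88 for miR-219b, 3.79 for miR-347, −1.62 for miR-466b-5p, 6.75 for miR-539-5p and 1.62 for miR-667-3p (adjusted p in edgeR = 0.0286 to 0.0458).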

How the results depend on the processing

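All 37 miRNAs kept their direction under each alternative that tested them. The number called was 97 with DESeq2, 57 with at least 100 counts in every rat (21 of the 37 tested), 85 with all 29 rats in the fit and 22 without the 3 UCLA TBIE rats, and ran from 18 (without UCLA TBIE rat 3) to 81 (without UEF TBIN rat 2) with 1 rat left out. The cause was not tested. The labels give rats of the sites the same replicate numbers. With the replicate number as a block 21 were called, 20 of them among the 37, but same-numbered rats did not deviate together in all pairs (correlations from −0.282 to 0.231), and 2 of 6 UCLA rats correlated best with their own number, so the rats share only a number. In TBIN rats the count of 18 ran from 0 to 30 with 1 rat left out. In TBIE rats the count of 120 was 20 with at least 100 counts in every rat, where 35 of the 120 were still tested, and ran from 70 to 108 with 1 rat left out. For the interaction with outcome the count became 0 with at least 100 counts in every rat, where 1 of the 28 was still tested (21 at an unadjusted p below 0.05 in edgeR), and 17 to 44 with 1 rat left out. For the interaction with injury the 8 became 14 with DESeq2 size factors, 16 with at least 100 counts and 0 to 23 with 1 rat left out. For sham rats the 21 became 3, 32 and 3 to 38 under the same choices. The difference in detected miRNAs was 27.5 with all rats thinned to the lowest total and 7.3 without the 3 UCLA TBIE rats, and passed under neither. Counts of a few per library, as for miR-297, limit what low miRNAs can show.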
